A study of Mus musculus with 12 samples.

Results

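The BCL2 family decides whether the outer membrane of the mitochondrion is breached during apoptosis, and its transcripts were followed here in mouse male germ cells from mid-gestation to just after birth. The members were 10 genes chosen by symbol and found by their Ensembl identifiers: the anti-apoptotic Bcl2, Bcl2l1 and Mcl1, and the pro-apoptotic Bax, Bak1, Bid, Bcl2l11, Bbc3, Pmaip1 and Bad. All 10 were found among the 55487 genes of the table. Of these, 9 reached at least 10 normalized counts in 3 or more libraries, the filter for testing, and Bak1 did not.

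RNA sequencing covered 12 libraries of gonocytes, which are testicular germ cells that have yet to become spermatogonia. There were 3 libraries for each of 4 ages: E13.5 and E16.5, counted in embryonic days, birth (P0) and postnatal day 3 (P3). The cells came from testes of mice that carry the Mvh-Venus transgene, a fluorescent reporter named after the germ cell gene Mvh (Ddx4). The series concerns the loss of Morc1 in germ cells, and the labels conflict on genotype. Titles and source names call every sample WT, whereas the genotype tag reads Morc1 (+/-) at E13.5 and P0 and Morc1 (-/-) at E16.5 and P3. Morc1 itself read 1621 to 1830 at E13.5, 28328 to 32917 at E16.5, 7280 to 7708 at P0 and 10584 to 11129 at P3, so the samples tagged (-/-) held more of its transcript than those tagged (+/-). The part of the gene that the allele removes is not given in the sources used here. Comparisons of neighbouring stages also cross the tag, so that stage and tag cannot be told apart there. P0 against E13.5, and P3 against E16.5, are pairs that carry the same tag. No source states that the libraries of a stage came from separate animals, so the p-values measure the spread between these libraries, which may be technical.

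Libraries held 40946616 to 51533747 reads assigned to genes. They are named by stage and by the number 1, 3 or 4 in the column heads, and values are normalized counts, meaning reads divided by a size factor of the library. Means are taken per stage (n = 3) and ± gives the SD. The summed level of 6 germ cell markers was 289020 to 306350 at E13.5, 186150 to 203560 at E16.5, 131720 to 140590 at P0 and 219610 to 237410 at P3. Its fall to E16.5 followed Dazl (139041 ± 3787 to 35953 ± 3072) and Dppa3 (79747 ± 2546 to 14677 ± 719). Of the 6 germ cell markers, 3 were called higher and 3 lower at E16.5 than at E13.5 (all genes: 80.1% called, 45.5% higher and 34.6% lower). Mael rose from 14374 ± 599 to 76214 ± 5048. Markers of Sertoli cells, the somatic cells that enclose the germ cells, summed to 4949 to 6865, 14104 to 21553, 24409 to 47970 and 10503 to 13561 in the same order, with all 8 of 8 listed genes found. Mast cell markers (5 of 5 found) were at 0 in every E13.5 library, at 27.0 to 43.5 at E16.5, at 1193 to 2725 at P0 and at 2.02 to 304 at P3. Markers of macrophages or endothelium (7 of 7 found) summed to 4413 to 5157, 1356 to 1426, 754 to 919 and 743 to 908 in stage order. The fall of this sum to E16.5 followed Pecam1 (4618 ± 400 at E13.5 and 282 ± 74.3 at E16.5). Its fall to P0 followed Cd68 (938 ± 97.9 to 38.8 ± 9.21), while Pecam1 stood at 515 ± 35.3 at P0. Apart from Pecam1, the other 5 of 6 tested were called higher in the E16.5 libraries compared with E13.5, where 45.5% of all genes were. The list median log2 fold change was 3.64 against 0.31 for all genes. Blood markers (6 of 6) went from 66.3 to 414 up to 1749 to 2433, then 1605 to 2542 and 302 to 534. From E16.5 on this sum was mostly Alas2, at 47.0 ± 12.9, 1476 ± 91.3, 1346 ± 85.0 and 264 ± 76.1 over the 4 stages. The globin gene Hba-a1 was low and uneven, at 52.7 ± 44.3, 229 ± 162, 215 ± 166 and 54.3 ± 22.8. Peritubular markers (5 of 5) were highest at birth (4274 to 4739, against at most 2453 in any other library). At E13.5 the peritubular sum was mostly Ptch1, which was 1891 ± 60.7 there and 579 ± 2.44 at P0. Of the 5, 4 were called higher and 1 lower at P0 than at E13.5 (list median log2 fold change 4.04). Of all genes 86.1% were called there, 45.7% higher and 40.5% lower, with a median of 0.20. Leydig markers (6 of 6) were at most 729 in the libraries of E13.5 and P3 but differed widely within the middle stages, at 623, 1236 and 7763 in libraries 1, 3 and 4 of E16.5 and 6201, 3169 and 1133 in those of P0. Levels of other cells' transcripts thus moved with stage, and their part in the results below was not tested. In bulk RNA, fewer cells of a type and less RNA per cell cannot be told apart.

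In this pathway BAX and BAK are the effectors, which assemble into pores that let cytochrome c out of the mitochondrion. The guardians BCL2, BCL-XL (encoded by Bcl2l1) and MCL1 hold them in check, and the BH3-only proteins BIM (Bcl2l11), PUMA (Bbc3), NOXA (Pmaip1), BID and BAD are the triggers that bind guardians or activate effectors. Bax, Bbc3 and Pmaip1 are well-known p53 target genes, and Bcl2l11 and Bbc3 are known targets of FOXO factors. Germ cells of the fetal and newborn testis are pruned by apoptosis, and mice without Bax keep surplus germ cells.

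Promoter sequence is shown for members whose transcripts went different ways: Bax, which fell between E13.5 and E16.5, Bcl2l1, which rose, and the known FOXO targets Bcl2l11 and Bbc3. Sequences are RefSeq start-site windows on GRCm38.p6, cut to the 250 bases upstream of the start. The motif search below covered 15 such windows of 9 of the 10 members. Pmaip1 was left out of that search, so whether it has such a window or a match was not tested. Capitals mark a match to the core FOXO letters GTAAACA or to its reverse TGTTTAC, and in Bax a match to the E box CACGTG. The Bcl2l11 window is chr2:128125788-128126037 (plus strand), with the FOXO letters beginning 227 bases upstream of the start. The Bbc3 stretch is chr7:16310083-16310112 (plus strand), 30 bases within the window of another of its starts, with the letters beginning 167 bases upstream. The Bax window is chr7:45466899-45467148 and the Bcl2l1 window chr2:152831729-152831978, both read on the minus strand.
Bcl2l11: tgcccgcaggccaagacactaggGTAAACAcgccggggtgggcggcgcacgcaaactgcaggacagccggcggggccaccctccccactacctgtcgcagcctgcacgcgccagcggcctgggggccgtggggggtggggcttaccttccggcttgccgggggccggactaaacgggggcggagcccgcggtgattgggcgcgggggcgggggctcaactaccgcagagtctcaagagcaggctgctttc
Bbc3: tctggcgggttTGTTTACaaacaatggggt
Bax: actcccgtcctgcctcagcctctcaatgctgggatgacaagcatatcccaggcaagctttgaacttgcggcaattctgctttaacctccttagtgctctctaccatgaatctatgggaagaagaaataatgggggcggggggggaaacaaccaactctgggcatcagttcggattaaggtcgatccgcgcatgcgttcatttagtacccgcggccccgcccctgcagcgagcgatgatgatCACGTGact
Bcl2l1: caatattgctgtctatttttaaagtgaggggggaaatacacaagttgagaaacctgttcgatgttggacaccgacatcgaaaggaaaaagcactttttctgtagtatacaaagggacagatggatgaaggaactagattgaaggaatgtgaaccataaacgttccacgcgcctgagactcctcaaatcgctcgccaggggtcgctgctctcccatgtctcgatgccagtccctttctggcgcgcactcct
Searched on both strands, the FOXO letters occurred in 3.17% of the 32851 start-site windows searched and the E box in 6.02%. The E box of Bax begins 9 bases upstream of its start. A further Bbc3 window, chr7:16310181-16310430, also holds an E box, which begins 64 bases upstream of that start. Of 5 motifs searched (these 2 with CCAAT, found in 33.8% of windows, the GC box GGGCGG in 32.7% and TATAAA in 12.4%), none matched in any of the 3 Bcl2l1 windows, which says only that these letters are not in them. A match is a description of letters and not of binding.

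All 9 tested members varied with stage (F-test in limma with Benjamini-Hochberg adjustment, adjusted p from 7.77e-15 for Bax to 0.000384 for Bad), but so did 95.2% of all 22384 genes tested, so that a call by itself says little about a member. The sizes and directions carry more. Between E13.5 and E16.5, 1 of 9 members was called higher and 7 lower, where 80.1% of all genes were called, 45.5% higher and 34.6% lower. The members' median log2 fold change was -1.83 against 0.31 for all genes. From E16.5 to P0, 2 rose and 4 fell (all genes: 61.0% called, 27.6% higher and 33.4% lower), with a median of -0.03 against -0.01. From P0 to P3, 7 rose and 1 fell (all genes: 76.5% called, 40.1% higher and 36.4% lower), with a median of 1.62 against 0.05. Most members were well above the filter, and among the 13135 genes with a mean of at least 100 the medians were -0.27, -0.29 and 0.58 in these 3 comparisons.

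**Figure D1:**
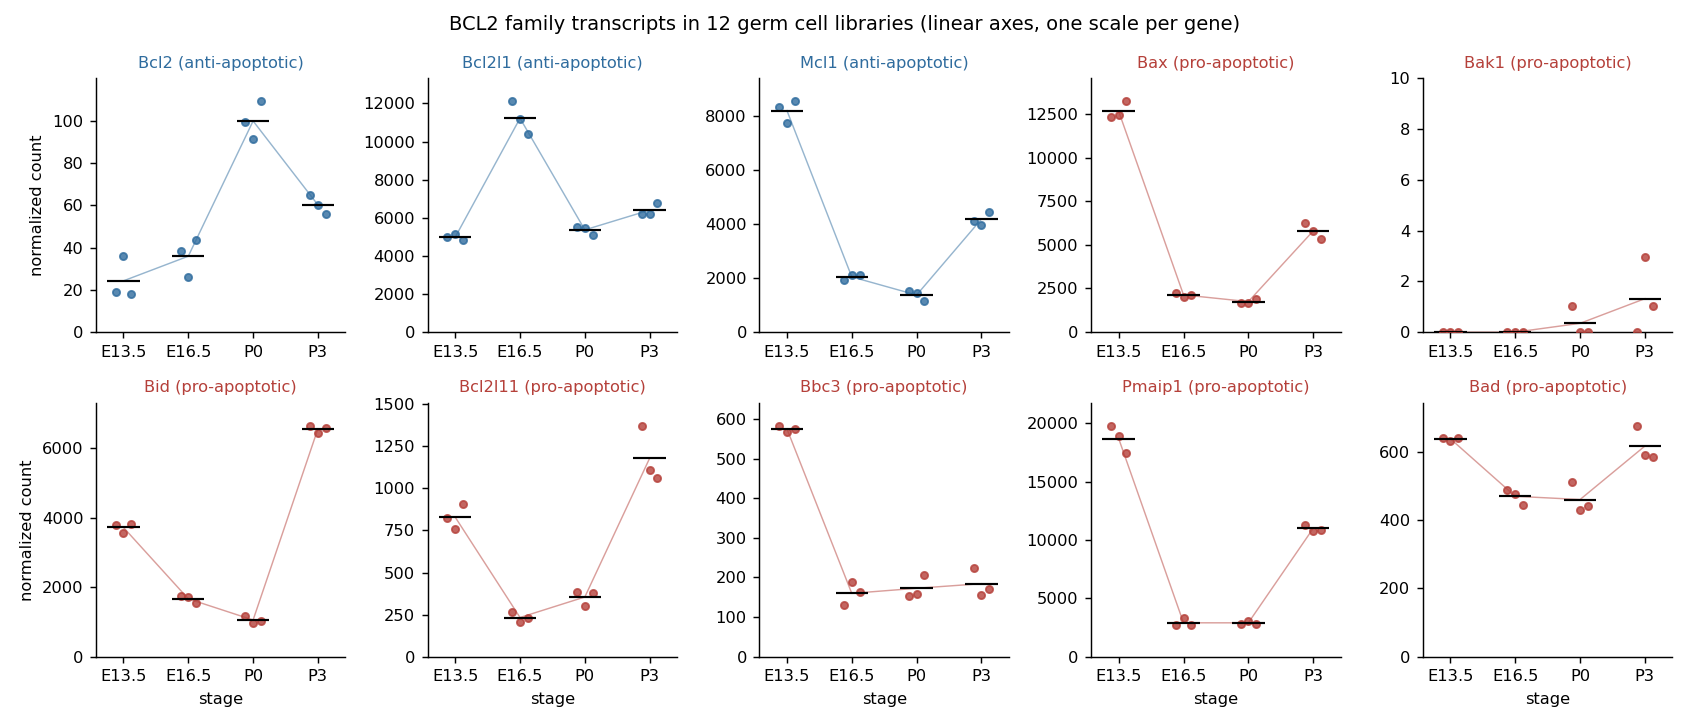
Normalized counts of the 10 members (vertical axes, linear, 1 scale per gene) at the 4 stages; points are libraries, black bars are stage means, blue is anti-apoptotic and red pro-apoptotic. Bcl2l1 peaks at E16.5 and Bcl2 at P0, while Bax, Mcl1 and Pmaip1 are highest at E13.5, Bid and Bcl2l11 at P3, and Bak1 stays at or below 3 counts.

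Among the guardians, Bcl2l1 and Mcl1 took opposite courses between E13.5 and E16.5. Bcl2l1 (minus strand, chr2:152780668-152831728 on GRCm38) encodes BCL-XL, which binds BAX and several BH3-only proteins. Its normalized counts were 4989, 5130 and 4825 at E13.5, 12099, 11178 and 10380 at E16.5, 5523, 5456 and 5117 at P0, and 6200, 6205 and 6799 at P3. All 3 E16.5 libraries stood above the 9 others, and only the P0 and E13.5 libraries overlapped among the stages. The rise to E16.5 was 1.17 on the log2(normalized count + 1) scale (SE 0.071, limma adjusted p = 1.37e-10), from 4981 ± 153 to 11219 ± 860. Its fall to P0 was nearly as large (-1.06, SE 0.071, adjusted p = 1.47e-09), and P0 and E13.5 were not called different (0.11, adjusted p = 0.167), though they were with TMM (0.31), median-of-ratios (0.59) and equal library totals (1.28). The small rise from P0 to P3 (0.25, adjusted p = 0.00386) depended on scaling, since it was 0.08 with TMM, -0.19 with median-of-ratios and -0.59 with equal library totals.

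Mcl1 (plus strand, chr3:95658788-95663176) encodes a short-lived guardian that is the main partner of NOXA. It read 8331, 7754 and 8548 at E13.5, 1915, 2105 and 2125 at E16.5, 1532, 1456 and 1139 at P0, and 4134, 3987 and 4447 at P3. No library of any stage overlapped another stage, and the order was E13.5, P3, E16.5, P0 from high to low. Mcl1 fell from E13.5 to E16.5 (-2.00, SE 0.097, limma adjusted p = 7.58e-12) and rose from P0 to P3 (1.62, SE 0.097, adjusted p = 1.76e-10). Its further fall to P0 (-0.58, adjusted p = 6.66e-05) was 0.08 with equal library totals. Mcl1 thus moved with most pro-apoptotic members and not with Bcl2l1.

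Bcl2 itself (minus strand, chr1:106538178-106714274) was scarce, at 17 to 226 recovered reads per library. Its normalized counts were 19.0, 35.9 and 17.9 at E13.5, 38.2, 26.0 and 43.5 at E16.5, 99.2, 91.3 and 109 at P0, and 64.9, 59.9 and 55.7 at P3. All 3 libraries of P0 stood above the 9 others, and E13.5 and E16.5 overlapped. Bcl2 rose from E16.5 to P0 (1.48, SE 0.31, limma adjusted p = 0.000602) under all 22 alternatives run (1.27 to 2.14). The difference between E13.5 and E16.5 was not called (0.59, adjusted p = 0.0929). It was called with median-of-ratios scaling (0.80, adjusted p = 0.0268), with equal library totals (1.07, adjusted p = 0.00519), without library 3 of E13.5 (0.89, adjusted p = 0.0131) and without library 3 of E16.5 (0.80, adjusted p = 0.0397). The decline to P3 (-0.72, SE 0.31, adjusted p = 0.0446) lost its call when any P0 or P3 library was left out, with adjusted p of 0.0607 to 0.119. P0 was also the stage with the highest Sertoli and mast cell marker sums, and the part of those cells in the Bcl2 count was not tested. The transcript D630008O14Rik overlaps 6.09% of the Bcl2 exons on the other strand, and the strand setting of the counting is not given in the sources used here.

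Bax was the effector that could be followed. It lies on the minus strand at chr7:45461697-45466898, and 12.2% of its exon bases overlap the predicted gene Gm45808 on the same strand. The normalized counts were 12294, 12418 and 13207 at E13.5, 2259, 2030 and 2111 at E16.5, 1670, 1684 and 1887 at P0, and 6238, 5816 and 5326 at P3. Every stage stood apart from the others, with E13.5 highest. Bax fell 5.93-fold from E13.5 to E16.5 (-2.57, SE 0.077, limma adjusted p = 2.61e-14), from 12640 ± 495 to 2133 ± 116. It rose 3.31-fold from P0 to P3 (1.73, SE 0.077, adjusted p = 4.60e-12), to 5793 ± 456. The small fall between E16.5 and P0 (-0.29, adjusted p = 0.00402) was not called with TMM (-0.17, adjusted p = 0.069) and was 0.37 with equal library totals.

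Bak1 (minus strand, chr17:27019810-27029009), the partner effector, was listed at 0 in 9 of 12 libraries. It had 1.04 normalized counts in library 1 of P0, 2.95 in library 3 of P3 and 1.01 in library 4 of P3, with at most 3 reads in any library. These values lie at or under the floor of 3 reads used here, so no fold is given. The annotation places Ggnbp1 on the other strand over 25.5% of the Bak1 exon bases, and how reads in shared stretches were assigned is not given in the sources used here. That overlap covers only part of the exons, and whether reads were left out of the Bak1 count was not tested.

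The BH3-only triggers fell together between E13.5 and E16.5 and then parted. All 5 were called lower at E16.5, though Bad was 0.06 with equal library totals. From P0 to P3, 4 of the 5 rose and Bbc3 was not called, and Bad again turned there (-0.42 with equal library totals). NOXA, encoded by Pmaip1 (plus strand, chr18:66458533-66465565), had the highest counts of the members at E13.5 and P3, whereas Bcl2l1 did at E16.5 and P0. It read 19760, 18895 and 17422 at E13.5, 2712, 3306 and 2717 at E16.5, 2825, 3103 and 2798 at P0, and 11297, 10805 and 10885 at P3. E16.5 and P0 overlapped, and both lay below every library of P3 and E13.5. The fall to E16.5 was 6.44-fold (-2.69, SE 0.082, limma adjusted p = 2.94e-14) and the rise from P0 to P3 was 3.78-fold (1.92, SE 0.082, adjusted p = 2.59e-12). Between E16.5 and P0 the difference was 0.00 (adjusted p = 0.975), although equal library totals gave 0.67 and a call.

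Bid (minus strand, chr6:120891930-120916853) encodes the trigger that caspase-8 cleaves, which links death receptors to the mitochondrion. Its normalized counts were 3790, 3546 and 3822 at E13.5, 1743, 1706 and 1551 at E16.5, 1166, 980.3 and 1028 at P0, and 6632, 6447 and 6587 at P3. No stages overlapped, and P3 was highest. Bid rose 6.21-fold from P0 to P3 (2.63, SE 0.078, limma adjusted p = 6.83e-14), the largest rise of any member in that comparison under each of the 4 scalings. It was also higher at P3 than at E13.5 (0.82, SE 0.078, adjusted p = 7.70e-08). The decline from E16.5 to P0 (-0.66, adjusted p = 1.73e-06) was 0.0053 with equal library totals. Bcl2l13 overlaps 17.7% of the Bid exon bases on the other strand.

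Bcl2l11 (plus strand, chr2:128126038-128162547) encodes BIM, which binds all the guardians. It read 824, 755 and 905 at E13.5, 263, 205 and 230 at E16.5, 385, 303 and 377 at P0, and 1368, 1106 and 1061 at P3. No stages overlapped, and P3 was highest. BIM transcripts were the only BH3-only ones called higher at P0 than at E16.5 (0.60, SE 0.14, limma adjusted p = 0.00108) with the scaling of the file. They rose again to P3 (1.73, SE 0.14, adjusted p = 5.42e-09), ending above E13.5 (0.50, adjusted p = 0.00345).

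Bbc3 (plus strand, chr7:16308393-16318205), which encodes PUMA, fell and did not return. Its normalized counts were 582, 567 and 575 at E13.5, 130, 188 and 162 at E16.5, 154, 159 and 206 at P0, and 225, 156 and 172 at P3. E13.5 stood above all others and the 3 later stages overlapped. The fall to E16.5 was -1.85 (SE 0.18, limma adjusted p = 6.02e-08), and P3 stayed below E13.5 (-1.65, SE 0.18, adjusted p = 3.70e-07). P3 and P0 were not called different (0.09, adjusted p = 0.663), a value that was -0.08 with TMM and -0.75 with equal library totals. PUMA and BIM, whose upstream windows shown above both hold the FOXO letters, therefore differed in their course after E16.5. The other windows searched for Bbc3 and Bcl2l11 do not hold these letters.

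Bad (plus strand, chr19:6941861-6951899), whose protein is held inactive by phosphorylation and 14-3-3 binding, varied least. It read 641, 631 and 640 at E13.5, 489, 477 and 442 at E16.5, 511, 429 and 440 at P0, and 674, 589 and 585 at P3. E16.5 and P0 overlapped, as did E13.5 and P3. Bad was lower at E16.5 than at E13.5 by 1.36-fold (-0.44, SE 0.11, limma adjusted p = 0.00109) and higher at P3 than at P0 by 1.34-fold (0.42, SE 0.11, adjusted p = 0.00171), and both directions turned with equal library totals (0.06 and -0.42). With median-of-ratios scaling the former was not called (-0.22, adjusted p = 0.0586). Gpr137 overlaps 20.5% of its exon bases on the other strand.

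**Figure D2:**
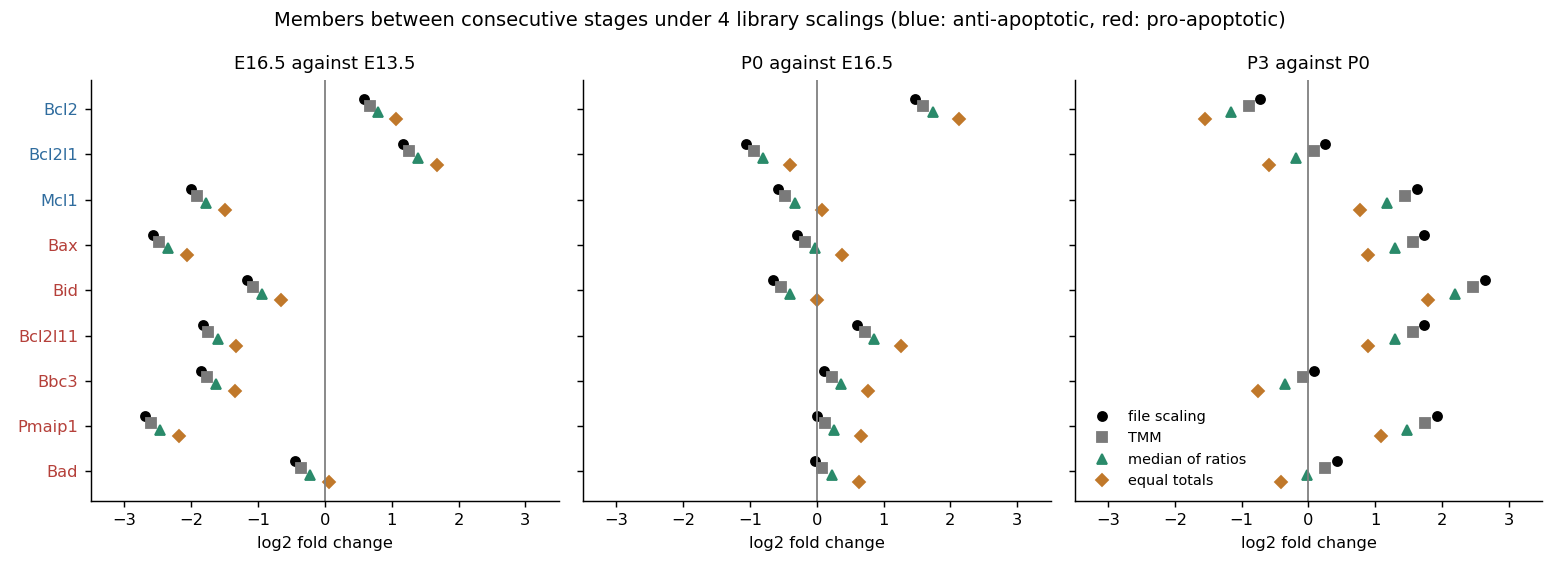
Log2 fold changes (horizontal axes) of the 9 tested members between neighbouring stages under 4 library scalings, with anti-apoptotic names in blue and pro-apoptotic names in red. The falls at E16.5 hold their side under each scaling except for Bad, whereas between E16.5 and P0 Bax, Mcl1, Bid and Bad cross 0, and between P0 and P3 Bcl2l1, Bbc3 and Bad do.

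Libraries of P0 carry size factors of 1.84 to 2.07, above those of every library of the other stages, at similar read totals. With equal library totals the median of all genes moved from 0.31 to 0.84 for E16.5 against E13.5, from -0.01 to 0.68 for P0 against E16.5 and from 0.05 to -0.86 for P3 against P0. The split of member calls then was 2 higher and 6 lower, 6 higher and 1 lower, and 5 higher and 4 lower, in place of 1 and 7, 2 and 4, and 7 and 1. Relative to the median of all genes the members' median stayed on the low side at E16.5 (-1.32 against 0.84) and on the high side at P3 (0.78 against -0.86).

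Pro- and anti-apoptotic members were therefore also compared within each library, where the size factor cancels. Counts per kilobase of exon were summed over the 10 members, and each class was given as a share of that sum, with no test. The guardians held 17.4, 17.1 and 17.8% at E13.5, 50.01, 48.2 and 48.7% at E16.5, 37.8, 37.1 and 34.1% at P0, and 19.7, 20.3 and 22.4% at P3. No stages overlapped, and the mean share rose from 17.4 ± 0.312% to 49.0 ± 0.923% and then came down to 36.3 ± 1.96% and 20.8 ± 1.43%. Bcl2l1 carried this course, at 5.43 ± 0.204, 39.3 ± 1.68, 26.8 ± 0.705 and 11.05 ± 0.794%, while the mean share of Mcl1 was never below 9.22% and Bcl2 held at most 0.278% in any library.

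The effector share, which was Bax almost entirely, went from 40.1 ± 1.68% at E13.5 to 21.8 ± 1.24% at E16.5, then 25.4 ± 2.15% at birth and 29.0 ± 1.67% at P3. The BH3-only share went from 42.5 ± 1.90% to 29.3 ± 1.96%, 38.3 ± 0.295% and 50.2 ± 0.251%. Its makeup also differed: Pmaip1 held 34.2 ± 2.04% at E13.5 and 31.8 ± 0.180% at P3, while Bid rose from 5.23 ± 0.168% to 14.6 ± 0.304%. These shares rest on exon lengths. With the longest transcript in place of all exons, guardians held 54.6% at E16.5. Leaving out Bax, which removes a pro-apoptotic member and so can only raise the figure, gave 29.1% at E13.5 and 62.6% at E16.5. Leaving out Bcl2l1 gave 12.7, 15.97, 12.95 and 10.96% in stage order, so that the size of the E16.5 peak rests on Bcl2l1.

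**Figure D3:**
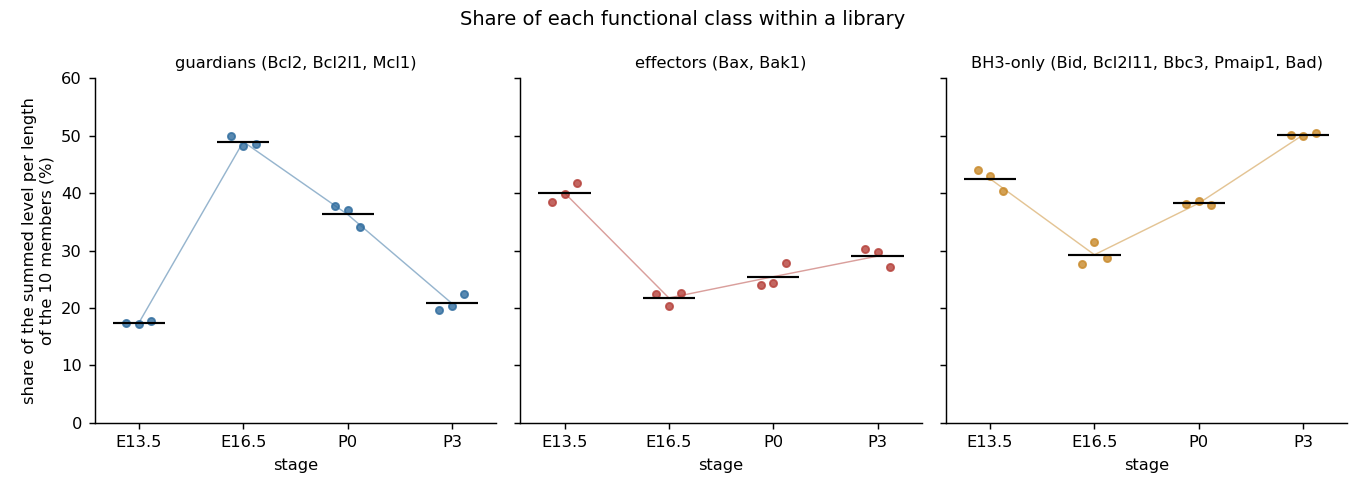
Share of guardians, effectors and BH3-only members in the summed level per length of the 10 members (vertical axis, percent), by stage; points are libraries and bars are stage means. The guardian share peaks at E16.5 at 49.0% and the other classes are lowest there, at 21.8% and 29.3%.

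Ratios between single members were again taken per length and within a library. They use the same counts as the shares and are not separate evidence. The Bax to Bcl2l1 ratio was 7.17, 7.04 and 7.97 at E13.5, 0.543, 0.528 and 0.592 at E16.5, 0.880, 0.898 and 1.07 at P0, and 2.93, 2.73 and 2.28 at P3. Bax thus exceeded its guardian per length in every E13.5 and P3 library and lay below it in every E16.5 library, with P0 near parity. Pmaip1 to Bcl2l1 moved likewise, from 6.30 ± 0.310 to 0.437 ± 0.060, 0.910 ± 0.049 and 2.89 ± 0.188. For NOXA against its partner MCL1 the range was narrower: the Pmaip1 to Mcl1 ratio was 2.86 ± 0.268, 1.78 ± 0.183, 2.68 ± 0.384 and 3.29 ± 0.198, with every E16.5 library below the 9 others. Bcl2l1 to Mcl1 went from 0.453 ± 0.037 to 4.10 ± 0.548, 2.94 ± 0.356 and 1.14 ± 0.021, so that the leading guardian transcript was Mcl1 at E13.5 and Bcl2l1 in every later library. Bid to Bcl2l1 was 0.966 ± 0.066, 0.192 ± 0.0056, 0.255 ± 0.021 and 1.33 ± 0.067 in stage order.

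**Figure D4:**
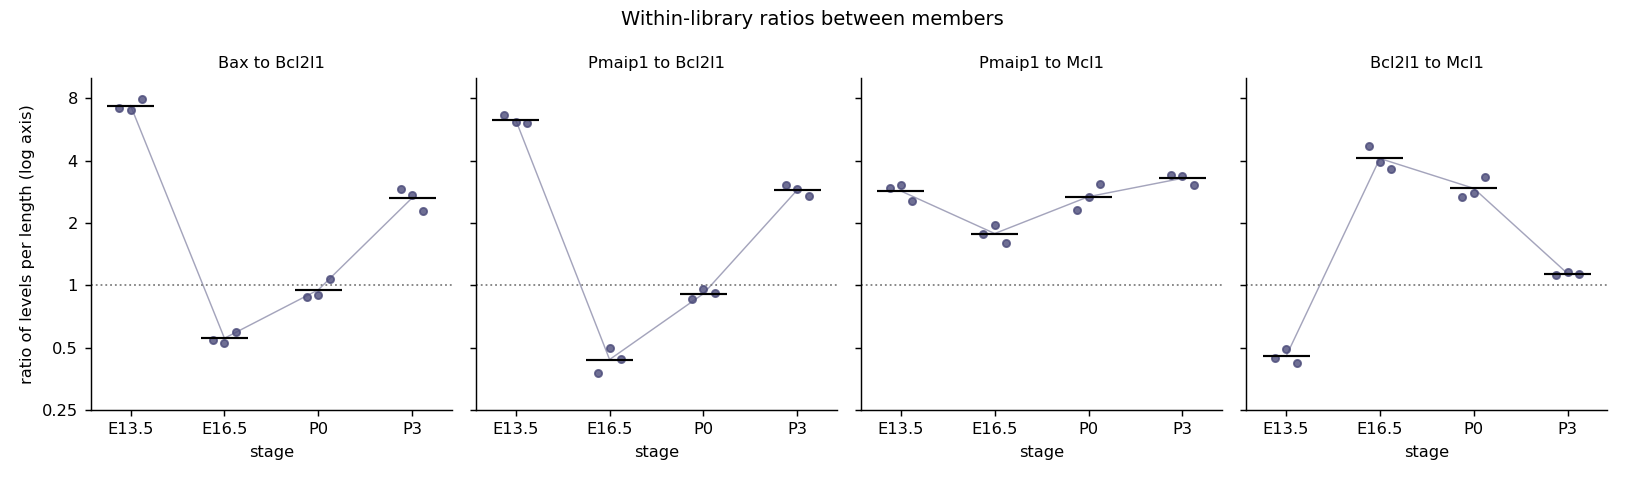
Within-library ratios of levels per length (vertical axis, log scale) for 4 pairs of members at the 4 stages; points are libraries, bars are stage means and the dotted line marks equal levels. Bax and Pmaip1 lie above Bcl2l1 at E13.5 and P3 and below it at E16.5, while Pmaip1 to Mcl1 stays between 1.60 and 3.42 in all libraries.

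Across longer intervals that do not cross the genotype tag, P0 differed from E13.5 with 1 member higher and 7 lower (all genes: 86.1% called, 45.7% higher and 40.5% lower), at a median of -1.74 against 0.20. All 6 tested pro-apoptotic members were lower at P0, though Bad (-0.47, limma adjusted p = 0.000514) was 0.69 with equal library totals, and Bcl2l11 (-1.23) was then no longer called (-0.06, adjusted p = 0.684). Bax was lowest in this comparison (-2.86, SE 0.077, adjusted p = 4.69e-15). Bcl2 was the member called higher (2.06, SE 0.31, adjusted p = 9.61e-06). Between E16.5 and P3, 7 members were higher at P3 and 1 lower (all genes: 69.5% called, 34.2% higher and 35.2% lower), at a median of 1.03 against -0.05. With median-of-ratios and equal library totals 5 were higher, since Bad (adjusted p = 0.0815 and 0.0583) and Bcl2 lost their calls. Bcl2l11 rose most (2.33, SE 0.14, adjusted p = 1.71e-10) and Bcl2l1 was the member that was lower (-0.81, SE 0.071, adjusted p = 2.79e-08). Bcl2 was called higher at P3 than at E16.5 (0.76, adjusted p = 0.0396), a call lost with TMM (adjusted p = 0.0570), median-of-ratios (adjusted p = 0.109) and equal library totals (adjusted p = 0.107), and in 8 of the 12 fits that leave out a library. These comparisons share libraries with those of neighbouring stages and are not separate evidence.

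E13.5 and P3, the first and last stages, still differed. At P3, 4 members were higher and 4 lower than at E13.5 (all genes: 70.4% called, 39.2% higher and 31.2% lower), at a median of -0.05 against 0.16. Higher were Bcl2 (1.34, limma adjusted p = 0.00102), Bid, Bcl2l11 and Bcl2l1 (0.36, adjusted p = 0.000238). Lower were Bbc3, Bax (-1.13, adjusted p = 1.17e-09), Mcl1 (-0.97, adjusted p = 1.34e-07) and Pmaip1 (-0.76, adjusted p = 3.09e-07). The p53 targets named above, Bax, Bbc3 and Pmaip1, were each below their E13.5 level at P3, and so was Mcl1. Trp53 itself fell from 17439 ± 840 at E13.5 to 1072 ± 114 at E16.5 (-4.03, SE 0.094, adjusted p = 2.10e-15), stood at 1030 ± 128 at P0 and reached 4058 ± 103 at P3 (1.98, SE 0.094, adjusted p = 9.15e-12). Whether Trp53 has a part in the courses of the members was not tested.

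Other members of the wider BCL2 family did not all follow. Of 5 further pro-apoptotic genes, 3 were higher and 2 lower at E16.5 than at E13.5 (all genes: 80.1% called, 45.5% higher and 34.6% lower). Hrk, a BH3-only gene known from neurons, was at 0, 2.18 and 6.31 counts at E13.5 and at 146, 117 and 135 at E16.5. It was called higher at E16.5, but no fold is given because 2 of the 3 E13.5 libraries lie at or under the floor of 3 reads. It fell from P0 to P3 (-1.82, SE 0.49, limma adjusted p = 0.00297). Bcl2l14 rose from 29.0 ± 14.6 to 331 ± 57.1 (3.59, SE 0.29, adjusted p = 7.26e-09). Bok, an effector-like relative of Bax and Bak1, rose from 575 ± 50.5 to 1455 ± 54.7 (1.34, SE 0.11, adjusted p = 1.10e-08). These 3 genes thus went up where the tested pro-apoptotic members went down.

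Bik and Bmf, both BH3-only, went the other way at E16.5. Bik fell from 290 ± 9.01 to 74.3 ± 18.9 (-1.98, SE 0.18, limma adjusted p = 3.48e-08), stood at 78.2 ± 10.7 at P0 and rose to 901 ± 63.6 at P3 (3.52, SE 0.18, adjusted p = 3.08e-11). Bmf fell from 668 ± 13.48 to 229 ± 56.6 and 76.2 ± 13.6 before rising to 151 ± 23.2 at P3 (0.98, SE 0.19, adjusted p = 0.000196), a call lost with equal library totals (0.15, adjusted p = 0.484). Among anti-apoptotic relatives only Bcl2l2, encoding BCL-W, passed the filter among the 5 listed. It peaked at E16.5 like Bcl2l1, at 160, 163 and 192 counts against 47.5, 47.9 and 40.0 at E13.5 (1.90, SE 0.24, adjusted p = 1.28e-06), and fell to 85.0 ± 18.7 at P0 (-1.02, SE 0.24, adjusted p = 0.00133), a fall not called with equal library totals (-0.36, adjusted p = 0.182). Bcl2l10, Bcl2a1a and Bcl2a1b reached at most 21 reads in a library and Bcl2a1d had none. The near-identical Bcl2a1 copies may share reads.

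Downstream and upstream genes of the pathway came from lists of 50 genes, of which 46 were tested. At E16.5 against E13.5, 15 were higher and 26 lower, with a median of -0.67 (all genes: 80.1% called, 45.5% higher and 34.6% lower, median 0.31). At P3 against P0, 32 were higher and 8 lower, with a median of 0.68 (all genes: 76.5% called, 40.1% higher and 36.4% lower, median 0.05). These shares are the background for each list in these 2 comparisons. With equal library totals, where 48 genes were tested, these splits were 19 higher and 22 lower at E16.5, and 13 higher and 23 lower at P3, so that the direction of the lists at P3 rests on the scaling, although their median of -0.23 stayed above the -0.86 of all genes. Of 10 apoptosome and caspase genes, 3 were higher and 7 lower at E16.5, and 9 were higher and none lower at P3 than at P0 (4 and 3 with equal library totals). Casp9, the initiator caspase of the mitochondrial route, was among the 3 that were higher: it rose from 2058 ± 140 to 7692 ± 583 at E16.5 (1.90, SE 0.083, limma adjusted p = 2.04e-12) and fell to 1285 ± 65.1 at P0 (-2.58, SE 0.083, adjusted p = 6.41e-13). Casp2 rose most at P3, from 467 ± 100 to 3709 ± 113 (3.01, SE 0.15, adjusted p = 1.13e-11).

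Of 7 mitochondrial genes, 3 were higher and 3 lower at E16.5. Vdac1, a channel of the outer membrane, fell from 5693 ± 323 to 581 ± 95.2 (-3.30, SE 0.13, limma adjusted p = 8.77e-13), and Aifm1, encoding a flavoprotein released during apoptosis, fell from 20037 ± 2231 at E16.5 to 4562 ± 375 at P0 (-2.13, SE 0.081, adjusted p = 2.63e-12). Of 5 inhibitor of apoptosis genes, 4 were lower at E16.5 (2 with equal library totals) and 3 higher at P3 than at P0 (1 higher and 4 lower with equal library totals). Birc5, which encodes survivin and also serves in mitosis, was the extreme, at 9838 ± 21.9, 909 ± 113, 285 ± 70.9 and 5040 ± 499 over the 4 stages (-3.44, -1.70 and 4.17, with adjusted p of 9.31e-13, 2.21e-08 and 2.09e-13). Xiap rose at P3 (0.51, adjusted p = 0.00152) but was -0.33 with equal library totals, and was the only gene named from these lists to change direction under another scaling.

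Of 8 death receptor genes, 2 were higher and 4 lower at E16.5 (4 and 3 with equal library totals). At P0 against E16.5, 4 were higher and 1 lower (5 and 0 with equal library totals). Of all genes 61.0% were called there, 27.6% higher and 33.4% lower, so the 5 of 8 called were near that share. At P3 against P0, 4 were higher and 1 lower (1 and 3 with equal library totals). Fas, the receptor upstream of caspase-8 and Bid, was seen mainly at the middle stages: 26.4, 17.4 and 6.31 counts at E13.5, 182, 193 and 222 at E16.5, 274, 222 and 230 at P0, and 5.81, 13.7 and 18.2 at P3. Its rise at E16.5 (3.69, SE 0.43, limma adjusted p = 6.33e-07) and fall at P3 (-4.28, SE 0.43, adjusted p = 1.27e-07) ran opposite to those of Bid. Among 10 regulators of BCL2 family genes and proteins, 3 were higher and 6 lower at E16.5, and 8 higher and 2 lower at P3 (4 and 5, and 3 and 6, with equal library totals). With the scaling of the file the 2 that fell at P3 were Trp63 (741 ± 78.3 to 81.6 ± 21.8, adjusted p = 2.25e-10) and Trp73. Ywhae, encoding a 14-3-3 protein, fell at E16.5 (-1.68, SE 0.085, adjusted p = 1.23e-11) and rose at P3 (1.85, SE 0.085, adjusted p = 5.94e-12).

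**Figure D5:**
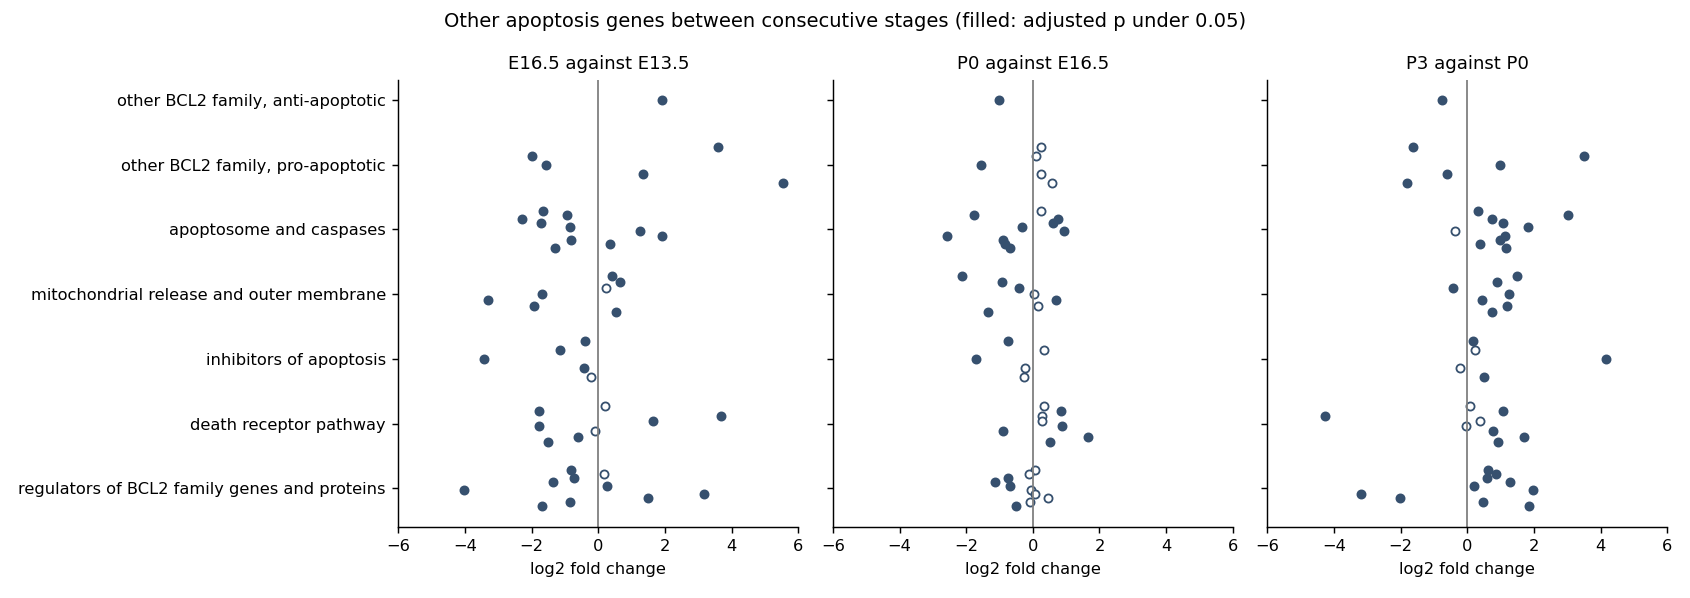
Log2 fold changes (horizontal axes) of the other apoptosis genes between neighbouring stages, 1 point per tested gene and 1 line per list; filled points have an adjusted p under 0.05 and open points do not. At P3 against P0 all called caspase and apoptosome genes lie on the right (4 of 7 called with equal library totals), while Fas and Trp63 lie far to the left; of the genes named from these lists Xiap alone turns under another scaling.

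The genes whose course was most like that of a member were named by the highest Pearson r over the 12 libraries, among 12199 genes. These r values describe 4 stages sampled in triplicate, share libraries and size factors, and carry no test. For Bax they were Cisd1 (0.998), Ntan1 and Gpx1, and for Pmaip1 Larp4 (0.998), Pank2 and Trp53inp1. Mcl1 was nearest to Tm9sf1 (0.997), Srsf6 and Rbm15b, and Bid to Qars (0.998), Pphln1 and Cdca7. For Bcl2l1 they were B3gnt7 (0.989), Hdac7 and Senp1, and for Bcl2l11 Csnk2b (0.992), Xlr4c and Minos1. Bbc3 was nearest to Dppa2 (0.980), Esrrb and Plk5, Bcl2 to Nenf (0.981), Htra3 and Megf9, and Bad to Scp2-ps2 (0.977), Ppp3r1 and Cmtm4. No gene stood among the top 3 of more than 1 member.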

How the data were processed

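RNA-seq libraries of 12 samples of male germ cells were prepared from total RNA with SMART-seq v4 and TruSeq mRNA kits, per the labels' protocols. The authors deposited a table of 55487 genes by 12 libraries holding a normalized signal, the read count of a gene divided by a size factor of its library. The values are labelled RLE, a median-of-ratios scaling. The submitters' processing notes name bcl2fastq 2.20, cutadapt 1.18, HISAT2 2.1.0, featureCounts 1.5.2, DESeq2 1.26.0 and the builds mm10 and GRCm38. Annotation release, strand setting and the treatment of reads matching several genes are not given in the sources used here.

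Dividing each column by what 1 read is worth gave whole numbers for 100% of values in all libraries, within a tolerance of 0.001. Reads were recovered in this way, 40946616 to 51533747 per library. Symbols matched 55141 identifiers. Positions and exon lengths are from GENCODE M21 on GRCm38. Columns were assigned to stages only, since their numbers 1, 3 and 4 are not the replicate numbers of the titles. Amplified reads are not independent molecules, so the floor of 3 reads covers counting error only.

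The test was limma 3.58.1 in R 4.3.3 on log2(normalized count + 1), with all 4 stages in 1 fit, 8 residual degrees of freedom and eBayes with a trend. It covered genes that reached 10 normalized counts in 3 or more libraries, and calls were made at a Benjamini-Hochberg adjusted p under 0.05 over all genes. A fold change on this scale understates the change of low genes. On recovered reads edgeR 4.0.16 called 17851 genes and DESeq2 1.42.0 called 17806 at E16.5 against E13.5, where limma called 17932. The scripts were tested on simulated data. Python 3.11.15 was used elsewhere.

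The members, the gene lists, the motifs and the tests were chosen with earlier results of these data known. Named were all members, each detected relative in the BCL2 family, the 2 highest and 2 lowest called genes of each list in each comparison of neighbouring stages (higher-stage mean of 100 or more), and the 3 genes most like each member among tested genes with a mean of at least 100 and no predicted-gene or clone name. Not every gene that the rule names is reported here. Genes named outside this rule were chosen after their values were seen. Alternatives were TMM, median-of-ratios and equal-total scaling, other pseudocounts (0.1 and 10), no filter on low values, a filter at a mean of 100, a minimum log2 fold change of 1, edgeR, DESeq2, a fit restricted to the 2 stages in question, the omission of each library and, added after the data were seen, a replicate block on the column numbers and shares without Bcl2l1.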

Additional observations from a re-analysis of the deposited data

How the results depend on the processing

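The numbers 1, 3 and 4 of the column heads recur in every stage but are not those of the titles, and deviations of same-numbered libraries from their stage means correlated at -0.036 to 0.042 (18 pairs), with 0 of 12 libraries closest to their own number in every other stage. A replicate block on these numbers, added after the data were seen, kept the call of 52 of 54 member values. It cannot move a fold, since the same numbers recur in every stage. The 2 calls lost were those of Bcl2, for P3 against P0 (-0.72, adjusted p = 0.0617) and P3 against E16.5 (0.76, adjusted p = 0.0556). Of 1290 values of members under the alternatives, 1210 kept their direction and side of the threshold, 44 lost the call, 10 gained it and 26 changed direction. Many of these values could not change direction, so the counts do not measure how stable the directions are. The fold stays as in the main fit with the block, a minimum fold change or other filters. It also stays in fits restricted to the 2 stages and without a library of a stage not compared. With a minimum log2 fold change of 1, the calls left were 2 of 6 called members for P0 against E16.5, 5 of 8 for P3 against P0, 5 of 8 for P3 against E16.5 and 3 of 8 for P3 against E13.5. Of all called genes, 7604 of 13658, 12236 of 17122, 10138 of 15550 and 10162 of 15755 were left in the same order. Guardian shares with the longest transcript as length were 54.6, 41.3 and 22.6% at E16.5, P0 and P3. Without Bax, the member with the highest mean level per length over the 12 libraries, they were 29.1, 62.6, 48.7 and 29.3% in stage order, and without Bcl2l1, an alternative added after the data were seen, 12.7, 15.97, 12.95 and 10.96%. Leaving out a library moved the shares to 17.3 to 17.6%, 48.5 to 49.3%, 35.6 to 37.4% and 20.0 to 21.4% in stage order.

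Directions changed under scaling, and the cause was not tested. Equal library totals gave for P0 against E16.5 0.37 in Bax, 0.079 in Mcl1, 0.0053 in Bid and 0.63 in Bad, and for P3 against P0 -0.59 in Bcl2l1, -0.75 in Bbc3 and -0.42 in Bad. They also gave Bad 0.063 for E16.5 against E13.5, 0.69 for P0 against E13.5 and 0.28 for P3 against E13.5. Median-of-ratios gave -0.19 in Bcl2l1, -0.35 in Bbc3 and -0.017 in Bad for P3 against P0, and Bad 0.22 and 0.0045 for P0 against E16.5 and E13.5. TMM gave Bbc3 -0.082 for P3 against P0 and Bad 0.084 for P0 against E16.5. edgeR and DESeq2 both gave Pmaip1 -0.0014 for P0 against E16.5. Values that were not called also crossed 0 when a library was left out: -0.028 to 0.24 (Bbc3), -0.045 to 0.098 (Pmaip1) and -0.11 to 0.015 (Bad) for P0 against E16.5, and -0.063 to 0.22 (Bbc3) for P3 against P0.

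With equal totals, calls over all genes split into 12911 higher and 5506 lower at E16.5 against E13.5 (10180 and 7752 with the scaling of the file), 12743 and 3443 at P0 against E16.5 (6173 and 7485), and 4577 and 13565 at P3 against P0 (8966 and 8156). The lost calls of Bcl2 between P3 and E16.5 when a library was left out had adjusted p of 0.0503 to 0.158. Depth limits Bcl2 and Bak1 most, since Bcl2 had at most 226 reads and Bak1 at most 3.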
